A study of Mus musculus with 9 samples.

Results

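The genes that copy DNA and the genes that divide the cell were compared between mouse bone marrow cells carrying NUP98-CDX1, NUP98-CDX4 or EGFP. The list held 54 genes, 27 of DNA replication and 27 of mitosis, and a gene counted as measured when 3 or more of the 9 arrays detected a probe of that symbol (detection p under 0.05). By that rule 47 of the 54 genes were measured, 26 of replication and 21 of mitosis, among 10018 named genes and 13160 features in all. The brightest probe stood for each gene, and all 47 measured genes were detected on 9 of 9 arrays. Of the 7 genes not measured, Ccnb1 and Mki67 had no probe under their symbol, the probes of Pola1, Ccnb2, Bub1 and Kif20a were detected on 0 arrays, and that of Cenpe on 1 array.

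Each group had 3 single-colour Illumina bead arrays, 1 for each RNA sample. The donor animals were C57/B6 mice, 6 to 8 weeks old, which had been given 5-FU, a drug that kills dividing cells and is used to enrich marrow for primitive cells. All 3 groups grew in IMDM medium holding serum at 2% and the cytokines IL-6 and stem cell factor. The fusion groups carried NUP98-CDX1 or NUP98-CDX4, in which part of the nuclear pore protein NUP98 is joined to a caudal-type homeobox protein, and the control group carried the green fluorescent protein EGFP. The labels call the gene transfer a transfection, name no vector or promoter, and leave unsaid if triplicates came from different cultures or animals. The p-values therefore cover only how far these samples spread, and that spread may be technical.

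DNA replication begins when the origin recognition complex, Cdc6 and Cdt1 load the Mcm2 to Mcm7 helicase ring in G1, and the ring is switched on in S phase with Cdc45 and the GINS complex. E2F transcription factors drive many of these genes at the G1 to S transition, through sites in their promoters. Mitosis genes are switched on later, in G2, by complexes that bind a cell cycle homology region (CHR), often with CCAAT boxes nearby. In cultured marrow, cells that mature along the myeloid lines leave the cycle, and the level of both programmes is commonly read as a sign of how much of a culture is dividing.

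The promoter windows of the replication and mitosis genes held these words in different shares. RefSeq windows from 250 bases before to 50 bases after the start of transcription were searched on both strands for 3 motifs: an E2F core, spelled TTCCCGC with the variants TTCGCGC and then also TTGCCGC and lastly the form TTGGCGC, a CHR, spelled TTTGAA with the variant TTCGAA, and the box CCAAT. A window was at hand for 45 of the 54 genes, 23 of replication and 22 of mitosis. Where a gene had several windows, as 4163 genes did, only the first listed was searched. Of the members Mcm7, Fen1, Uhrf1 and Prc1 had 2 windows and Lig1 had 3. An E2F core stood in 15 of 23 replication windows (65.2%) and 3 of 22 mitosis windows (13.6%), against 9.69% of the 27025 genes with a window. A CHR stood in 5 replication windows (21.7%) and 17 mitosis windows (77.3%), against 19.4% of all. CCAAT stood in 14 replication windows (60.9%) and 19 mitosis windows (86.4%), against 37.9% of all. The E2F core TTGGCGC, read on the other strand as GCGCCAA, can share its last letters with a CCAAT box. A match describes these letters only, and the shares were not tested.

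The windows of the first 2 measured genes of each branch that held the branch's motif show where these words lie, on the GRCm38.p6 build. They are Cdc6, which loads the helicase, at chr11:98907901-98908200 on the plus strand, and Cdt1, its loading partner, at chr8:122567765-122568064 on the plus strand, with E2F cores in capitals. They are followed by Cdk1, the kinase that starts mitosis, at chr10:69352863-69353162 on the minus strand, and Plk1, a kinase of spindle assembly, at chr7:122159185-122159484 on the plus strand, with CHR words in capitals.
Cdc6: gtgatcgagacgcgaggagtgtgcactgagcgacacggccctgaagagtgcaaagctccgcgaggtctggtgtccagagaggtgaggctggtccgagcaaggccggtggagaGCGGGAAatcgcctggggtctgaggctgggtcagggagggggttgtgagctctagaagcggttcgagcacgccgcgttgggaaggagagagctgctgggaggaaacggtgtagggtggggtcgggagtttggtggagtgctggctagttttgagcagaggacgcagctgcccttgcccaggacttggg
Cdt1: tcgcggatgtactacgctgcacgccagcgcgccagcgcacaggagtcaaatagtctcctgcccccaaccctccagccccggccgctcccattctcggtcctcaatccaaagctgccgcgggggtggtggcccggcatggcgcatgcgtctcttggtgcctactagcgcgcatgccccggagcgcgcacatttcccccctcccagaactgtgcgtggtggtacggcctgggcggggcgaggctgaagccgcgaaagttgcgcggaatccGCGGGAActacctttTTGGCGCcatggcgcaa
Cdk1: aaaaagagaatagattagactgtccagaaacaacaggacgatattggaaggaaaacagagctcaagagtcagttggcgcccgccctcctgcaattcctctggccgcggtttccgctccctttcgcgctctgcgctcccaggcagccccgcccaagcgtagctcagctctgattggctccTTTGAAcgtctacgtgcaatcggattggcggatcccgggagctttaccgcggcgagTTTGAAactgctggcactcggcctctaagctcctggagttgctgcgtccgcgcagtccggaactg
Plk1: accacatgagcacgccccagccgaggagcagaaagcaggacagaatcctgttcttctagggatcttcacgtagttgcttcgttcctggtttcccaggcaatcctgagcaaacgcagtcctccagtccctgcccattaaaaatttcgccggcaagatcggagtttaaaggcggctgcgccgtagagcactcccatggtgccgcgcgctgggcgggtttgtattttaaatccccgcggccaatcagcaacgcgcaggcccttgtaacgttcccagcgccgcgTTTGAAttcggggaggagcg
The Cdc6 window held 1 E2F core and that of Cdt1 2, both just inside the transcribed side of the start. The Cdk1 window held 2 CHR words and 3 CCAAT boxes, and also 2 E2F cores, which are not in capitals here. The Plk1 window held 1 CHR and 1 CCAAT box.

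Values are log2 intensities after background correction and quantile normalization, and a difference of 1 is a 2-fold change. Each array detected 17257 to 19300 of 45281 probes, and precision is limited by having 3 arrays a group. The arrays fell into 2 sets by how the signals of probes detected on no array correlated. The brighter set held EGFP 1 and 2, NUP98-CDX1 3, and NUP98-CDX4 1 and 3, and the dimmer set held EGFP 3, NUP98-CDX1 1 and 2, and NUP98-CDX4 2. The names brighter and dimmer hold for the average of a set on these probes and not for each array. Their median was 71.0 in EGFP 2 and 74.4 in EGFP 3. Arrays of the brighter set detected 17257 to 17707 probes and those of the dimmer set 18515 to 19300. The labels name no such batch. Each group had arrays of both sets, so results are also given with array set in the model. The deposited column names hold a day number whose meaning is not stated. It was 21 in EGFP, 28 in NUP98-CDX1 and either 17 or 20 in NUP98-CDX4, so day number and group cannot be told apart. The column names of NUP98-CDX1 alone also hold the letters ires. What these letters stand for is not stated, and they too cannot be told apart from group. Of 5 general blood cell markers such as Ptprc, 5 were measured, and Kit, Cd34, Meis1, Mecom and Gata2 of the primitive marrow cells were also measured.

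No replication or mitosis gene passed the test between NUP98-CDX1 and EGFP. Replication members differed by a median of 0.05 on the log2 scale and mitosis members by -0.04, against 0.02 over all 13160 features. By limma's model, 0 of 47 members passed an adjusted p of 0.05, beside 1.04% of all features, and 2 members passed an unadjusted p of 0.05, beside 11.2%. The 2 were Chaf1b and E2f1, both higher in NUP98-CDX1. The 3 arrays of each group did not overlap for 4 members, beside 15.2% of all features: Fen1, Chaf1b and E2f1 lay higher and Plk1 lower in NUP98-CDX1. Because these are bulk samples, fewer cells of a type and less RNA per cell cannot be told apart.

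No replication or mitosis gene passed between NUP98-CDX4 and EGFP either. The median difference from EGFP was 0.15 for replication members and -0.02 for mitosis members, against 0.03 over all features, and these medians were not tested. In single arrays the replication median was also taken, each gene less its own mean. It ran from -0.12 to 0.03 in EGFP and from 0.01 to 0.14 in NUP98-CDX4, so the groups overlapped with both array sets together. On the brighter arrays it was -0.04 and 0.03 in EGFP and 0.12 and 0.14 in NUP98-CDX4. On the dimmer array it was -0.12 in EGFP and 0.01 in NUP98-CDX4. Inside each set NUP98-CDX4 thus lay higher, which was not tested. In limma's model 0 of 47 members passed, beside 5.36% of all features, and again 2 members, Chaf1b and E2f1, passed an unadjusted p of 0.05, beside 15.5%. The arrays of the groups did not overlap for 6 members, beside 21% of all features, and all of them lay higher in NUP98-CDX4: Cdc6, Mcm3, Rrm1, Chaf1b, E2f1 and, of mitosis, Bub1b. The comparisons with EGFP share their 3 EGFP arrays, so likeness between them is not an independent observation.

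Between the fusions no member passed the test either. The median of NUP98-CDX4 less NUP98-CDX1 was 0.06 for replication and 0.08 for mitosis, against 0.01 over all features. In limma's model 0 of 47 members passed, beside 0.144% of all features, and 0 passed an unadjusted p of 0.05, beside 6.85%. The arrays did not overlap for 3 members, beside 9.91% of all features: Mcm5 and Bub1b lay higher in NUP98-CDX4 and Cdk1 lower.

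The intervals show how large a change these arrays could have missed. The 95% interval of the difference lay within 2-fold for 41 of 47 members in NUP98-CDX1 against EGFP, for 43 in NUP98-CDX4 against EGFP and for 41 between the fusions. The intervals of Mcm7, Rfc4, Lig1 and Tpx2 reached past 2-fold in all 3 comparisons, and those of Rrm2 and Ccne1 in both that involve NUP98-CDX1. The estimated fold of every member was under 1.5 in all 3 comparisons. Within groups the members' median SD was 0.196, and that of all features was 0.272.

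**Figure D1:**
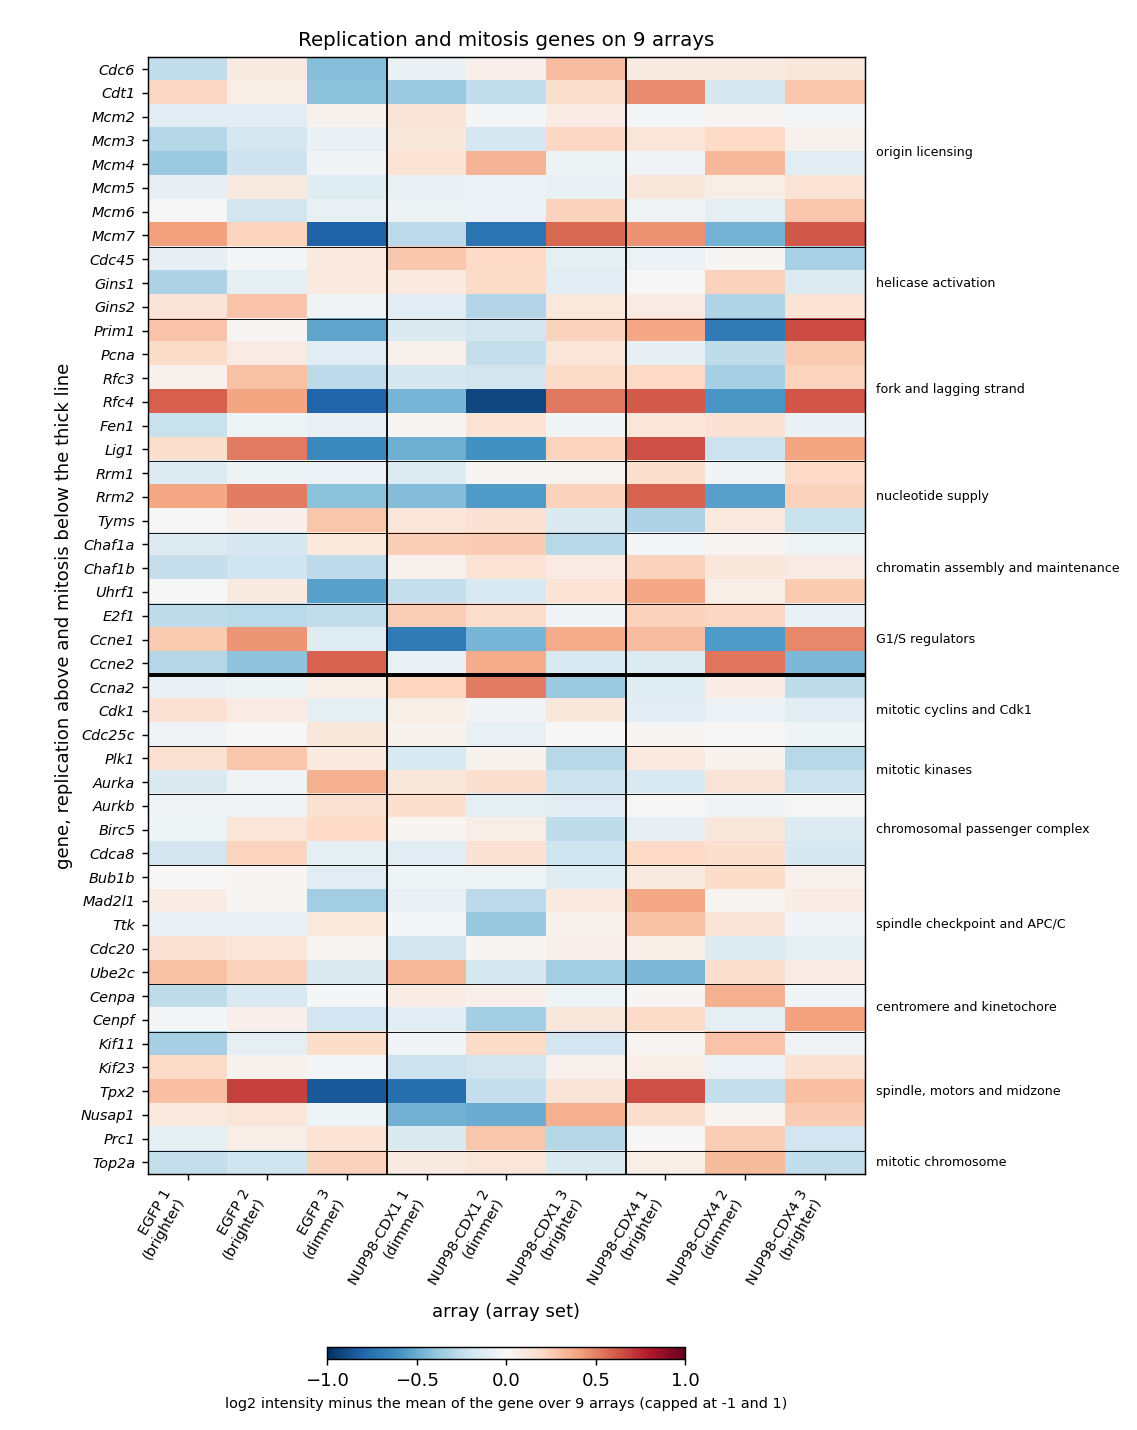
Log2 intensity of the 47 measured members (rows, grouped by role) on each of 9 arrays (columns, with their array set), less the gene's own mean, with colour capped at 1 in each direction. The strongest colours follow the brighter and dimmer arrays, in Rfc4, Mcm7, Lig1, Rrm2 and Tpx2, more than the fusion.

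Origin licensing genes, which mark where replication may start, were measured in full. Mcm4, a helicase subunit, read 12.98, 13.14 and 13.33 in EGFP, 13.49, 13.69 and 13.30 with NUP98-CDX1 and 13.32, 13.68 and 13.24 with NUP98-CDX4. Mcm3, another subunit, read 10.56, 10.68 and 10.78 in EGFP, 10.96, 10.68 and 11.05 with NUP98-CDX1 and 10.97, 11.05 and 10.89 with NUP98-CDX4, and all NUP98-CDX4 arrays lay above all EGFP arrays. The difference from EGFP was 0.34 for Mcm4 in NUP98-CDX1 (95% interval -0.06 to 0.74, limma adjusted p = 0.533). For Mcm3 in NUP98-CDX4 it was 0.30 (-0.04 to 0.63, limma adjusted p = 0.408). Cdc6, which read 9.48, 9.81 and 9.30 in EGFP and 9.81, 9.81 and 9.84 in NUP98-CDX4, differed by 0.29, and the groups nearly touched at 9.81. All 6 Mcm2 to Mcm7 genes had a positive difference in NUP98-CDX4 against EGFP, from 0.05 to 0.30, while in NUP98-CDX1 4 of 6 did, from -0.08 to 0.34. None of these 6 passed the test in either comparison. The -0.08 was that of Mcm7, which lay higher with NUP98-CDX1 inside each array set, while more of the NUP98-CDX1 arrays were dimmer. On the brighter arrays Mcm7 read 11.38 and 11.19 in EGFP and 11.55 with NUP98-CDX1. On the dimmer arrays it read 10.16 in EGFP, and 10.71 and 10.24 with NUP98-CDX1. A second Mcm7 probe differed from EGFP by 0.33 with NUP98-CDX1. Other Mcm4 probes differed there by -0.33 and 0.19, and other Mcm6 probes by 0.17, -0.25 and -0.44. With NUP98-CDX4 the other Mcm4 probes differed by -0.08 and 0.33, and those of Mcm6 by 0.20, 0.11 and 0.21. Both counts of positive differences therefore depend on the probe, and the count of 4 of 6 is not free of array set.

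The switch from the loaded to the active helicase needs Cdc45 and the GINS complex. Gins2, a GINS subunit, read 10.15, 10.30 and 9.98 in EGFP, 9.91, 9.72 and 10.12 with NUP98-CDX1 and 10.10, 9.72 and 10.16 with NUP98-CDX4, and the groups overlapped. It differed from EGFP by -0.23 in NUP98-CDX1 and -0.15 in NUP98-CDX4. Gins1 and Cdc45 differed from EGFP by 0.13 to 0.16 in NUP98-CDX1 and -0.12 to 0.13 in NUP98-CDX4.

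At the fork, Prim1 makes the primers, Pcna is the sliding clamp, Rfc3 and Rfc4 belong to its loader, Fen1 removes the primer flap and Lig1 joins the fragments. Fen1 read 12.39, 12.57 and 12.55 in EGFP, 12.64, 12.76 and 12.59 with NUP98-CDX1 and 12.74, 12.76 and 12.55 with NUP98-CDX4, and the NUP98-CDX1 arrays all lay above those of EGFP. The difference from EGFP was 0.16 with NUP98-CDX1 and 0.18 with NUP98-CDX4. The other 5 measured genes of this group differed from EGFP by -0.34 to 0.04 in NUP98-CDX1 and -0.08 to 0.26 in NUP98-CDX4. The lowest in NUP98-CDX1 were Rfc4 at -0.34 and Lig1 at -0.31, both lower on the dimmer arrays of each group. Rfc4 read 10.62, 10.42 and 9.23 in EGFP and 9.56, 9.12 and 10.56 with NUP98-CDX1. Inside each array set its NUP98-CDX1 and EGFP values overlapped, and more of the NUP98-CDX1 arrays were dimmer.

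For nucleotides, Rrm1 and Rrm2 form ribonucleotide reductase and Tyms makes thymidylate, the step that 5-FU blocks. Rrm2 read 9.94, 10.07 and 9.14 in EGFP, 9.11, 8.99 and 9.78 with NUP98-CDX1 and 10.14, 9.004 and 9.78 with NUP98-CDX4, with high and low arrays in every group. Tyms read 11.57, 11.62 and 11.85 in EGFP, 11.69, 11.71 and 11.43 with NUP98-CDX1 and 11.26, 11.66 and 11.34 with NUP98-CDX4, and the groups overlapped. The differences were -0.42 for Rrm2 in NUP98-CDX1 (-1.22 to 0.37, limma adjusted p = 0.703) and -0.25 for Tyms in NUP98-CDX4 (limma adjusted p = 0.591). Rrm1 differed by 0.04 and 0.19 from EGFP in NUP98-CDX1 and NUP98-CDX4. Other Rrm1 probes differed from EGFP by 0.03 and -0.03 in NUP98-CDX4.

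Chromatin behind the fork is rebuilt by Chaf1a and Chaf1b, subunits of the histone chaperone CAF-1, and Uhrf1 keeps DNA methylation through replication. Chaf1b read 9.95, 9.98 and 9.92 in EGFP, 10.22, 10.31 and 10.26 with NUP98-CDX1 and 10.40, 10.29 and 10.26 with NUP98-CDX4, and every fusion array lay above every EGFP array. It differed by 0.32 in NUP98-CDX1 (0.04 to 0.60, limma adjusted p = 0.362) and by 0.37 in NUP98-CDX4 (0.09 to 0.65, limma adjusted p = 0.146). Uhrf1 read 12.58, 12.67 and 12.04 in EGFP, 12.34, 12.42 and 12.71 with NUP98-CDX1 and 12.97, 12.64 and 12.84 with NUP98-CDX4, and in every group the dimmer arrays gave the lowest values. Uhrf1 differed by 0.06 in NUP98-CDX1 and 0.39 in NUP98-CDX4 (limma adjusted p = 0.438). Chaf1a differed by 0.14 and 0.05.

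Of the G1 to S regulators, E2f1 encodes an E2F activator, and Ccne1 and Ccne2 encode the cyclins that push cells into S phase. E2f1 read 10.53, 10.50 and 10.53 in EGFP, 11.02, 10.95 and 10.75 with NUP98-CDX1 and 11.01, 10.98 and 10.71 with NUP98-CDX4, and every fusion array lay above every EGFP array. It differed by 0.39 in NUP98-CDX1 (0.06 to 0.71, limma adjusted p = 0.343) and by 0.38 in NUP98-CDX4 (0.06 to 0.71, limma adjusted p = 0.216). The promoter window of E2f1 had 0 E2F cores, that of Chaf1b 2 and that of Uhrf1 1. Ccne1 read 7.66, 7.85 and 7.28 in EGFP, 6.69, 6.94 and 7.77 with NUP98-CDX1 and 7.71, 6.83 and 7.88 with NUP98-CDX4, lower on the dimmer arrays of each group. Ccne2 read 8.37, 8.25 and 9.23 in EGFP, 8.58, 9.02 and 8.50 with NUP98-CDX1 and 8.51, 9.18 and 8.20 with NUP98-CDX4, higher on the dimmer arrays of each group. In both cyclins the arrays of 1 group lay further apart than the groups did, and their differences from EGFP ran from -0.46 to 0.08 in NUP98-CDX1 and from -0.12 to 0.01 in NUP98-CDX4.

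**Figure D2:**
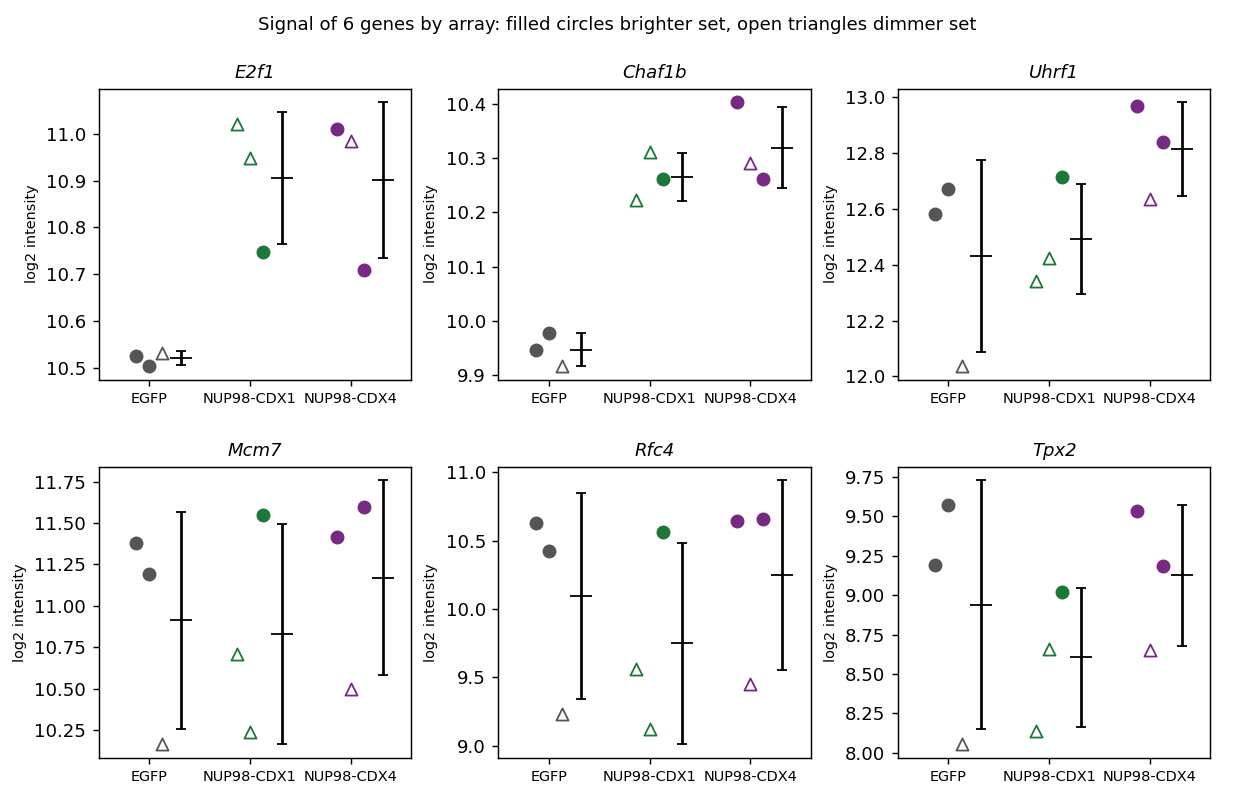
Log2 intensity of E2f1, Chaf1b, Uhrf1, Mcm7, Rfc4 and Tpx2 in each group, with 1 symbol per array (filled circles, brighter set; open triangles, dimmer set), bars for the mean ± SD of 3 arrays and a separate scale for each panel. E2f1 and Chaf1b lie higher on all 6 fusion arrays, while Mcm7, Rfc4 and Tpx2 split by array set inside every group.

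No mitosis gene passed in any of the 3 comparisons, the cyclins and their kinase included. Ccna2, cyclin A, read 6.91, 6.93 and 7.05 in EGFP, 7.19, 7.50 and 6.61 with NUP98-CDX1 and 6.85, 7.06 and 6.73 with NUP98-CDX4, with overlap between all groups. Cdk1, the kinase that the mitotic cyclins switch on, read 11.99, 11.93 and 11.75 in EGFP, 11.91, 11.81 and 11.96 with NUP98-CDX1 and 11.74, 11.79 and 11.74 with NUP98-CDX4, with NUP98-CDX4 below NUP98-CDX1 on every array. Cdk1 differed from EGFP by 0.003 with NUP98-CDX1 and -0.13 with NUP98-CDX4, and Ccna2 by 0.14 and -0.08. From NUP98-CDX1 to NUP98-CDX4 the Cdk1 probe used differed by -0.14, while a second Cdk1 probe, detected on 6 arrays, differed by 0.25. Cdc25c, the phosphatase that frees Cdk1, differed by -0.04 and -0.04.

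Of the mitotic kinases, Plk1, which drives spindle assembly and exit, read 11.46, 11.59 and 11.41 in EGFP, 11.16, 11.35 and 11.04 with NUP98-CDX1 and 11.41, 11.34 and 11.03 with NUP98-CDX4. The NUP98-CDX1 arrays lay below all EGFP arrays, and the difference was -0.31 (-0.66 to 0.05, limma adjusted p = 0.529). In NUP98-CDX4 it was -0.23 (-0.58 to 0.13, limma adjusted p = 0.625). Aurka, which matures the centrosomes, differed by -0.04 in NUP98-CDX1 and -0.14 in NUP98-CDX4. Of the chromosomal passenger complex, which corrects attachment to the spindle, Birc5 read 11.97, 12.14 and 12.21 in EGFP, 12.03, 12.08 and 11.76 with NUP98-CDX1 and 11.93, 12.13 and 11.88 with NUP98-CDX4. Birc5 differed from EGFP by -0.15 and -0.13 in NUP98-CDX1 and NUP98-CDX4, while Aurkb and Cdca8 both differed by -0.04 in NUP98-CDX1, and by -0.04 and 0.09 in NUP98-CDX4.

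The spindle checkpoint holds cells until every chromosome is attached, and Cdc20 and Ube2c then act with the anaphase-promoting complex. Cdc20 read 11.91, 11.88 and 11.79 in EGFP, 11.58, 11.78 and 11.81 with NUP98-CDX1 and 11.83, 11.62 and 11.66 with NUP98-CDX4, and the groups overlapped. Mad2l1, a checkpoint inhibitor of Cdc20, read 11.66, 11.60 and 11.24 in EGFP, 11.52, 11.33 and 11.69 with NUP98-CDX1 and 11.97, 11.62 and 11.66 with NUP98-CDX4, and the groups overlapped here too. The differences were -0.14 for Cdc20 in NUP98-CDX1 and 0.25 for Mad2l1 in NUP98-CDX4. Bub1b is a checkpoint kinase homologue whose NUP98-CDX4 arrays lay above all others. It differed by 0.14 from EGFP (limma adjusted p = 0.775) and by 0.17 from NUP98-CDX1 (limma adjusted p = 0.879). A second Bub1b probe differed by -0.04 from EGFP and by 0.19 from NUP98-CDX1. Ttk and Ube2c differed from EGFP by -0.19 to -0.10 in NUP98-CDX1 and -0.20 to 0.15 in NUP98-CDX4.

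Cenpa, the histone that marks the centromere, read 13.26, 13.37 and 13.50 in EGFP, 13.59, 13.57 and 13.47 with NUP98-CDX1 and 13.53, 13.88 and 13.49 with NUP98-CDX4, with overlap between the groups. It differed from EGFP by 0.16 with NUP98-CDX1 and 0.25 with NUP98-CDX4, and Cenpf, a kinetochore protein, by -0.06 and 0.22. Among the spindle proteins, Kif23, a motor of the midzone, read 11.86, 11.70 and 11.65 in EGFP, 11.45, 11.48 and 11.71 with NUP98-CDX1 and 11.73, 11.61 and 11.82 with NUP98-CDX4. Kif11, the motor that pushes the poles apart, read 9.38, 9.61 and 9.90 in EGFP, 9.69, 9.90 and 9.52 with NUP98-CDX1 and 9.74, 9.998 and 9.68 with NUP98-CDX4, and the groups overlapped. The differences were -0.19 for Kif23 in NUP98-CDX1 and 0.17 for Kif11 in NUP98-CDX4. Tpx2, Nusap1 and Prc1, which bind or bundle spindle microtubules, differed by -0.34 to -0.09 in NUP98-CDX1 and -0.02 to 0.19 in NUP98-CDX4. The lowest in NUP98-CDX1 was Tpx2, which was lower on the dimmer arrays of each group. It read 9.19, 9.57 and 8.05 in EGFP and 8.14, 8.66 and 9.02 with NUP98-CDX1. Top2a, which untangles chromosomes, read 11.71, 11.75 and 12.18 in EGFP, 12.04, 12.07 and 11.80 with NUP98-CDX1 and 12.005, 12.26 and 11.70 with NUP98-CDX4 and differed by 0.09 and 0.11.

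Between the fusions the widest differences lay in genes that also followed the array set. Lig1 differed by 0.56 (NUP98-CDX4 less NUP98-CDX1, 95% interval -0.22 to 1.35), Tpx2 by 0.52 and Rfc4 by 0.50. With array set in the model these values were 0.29, 0.23 and 0.09.

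More members passed between the array sets than between the groups. Between the brighter and the dimmer set, 25 of 47 members passed limma's adjusted p of 0.05, beside 55.9% of all features: 14 were higher on the brighter arrays, beside 25.9%, and 11 lower, beside 30%. Rfc4 ranged from 10.42 to 10.66 on the brighter arrays and from 9.12 to 9.56 on the dimmer ones, a difference of 1.24 (limma adjusted p = 9.47e-05). Mcm7 ranged from 11.19 to 11.60 and from 10.16 to 10.71, a difference of 1.07, and Rfc4 and Mcm7 were the 2 members over 2-fold. Tpx2 differed by 0.89, Rrm2 by 0.85, Lig1 by 0.83 and Ccne1 by 0.80, all higher on the brighter arrays. Ccne2 was the member furthest lower on them, at -0.68 (limma adjusted p = 0.00484), and Ccna2, Aurka and Top2a lay at -0.38, -0.37 and -0.37. Replication genes were called 10 times higher and 5 times lower, and mitosis genes 4 times higher and 6 times lower.

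The set difference was not the same for all probes of a gene. A second probe of Mcm7 differed between the sets by -0.08 (limma adjusted p = 0.37), where the probe used differed by 1.07. For Rrm2 the other 2 probes differed by 0.16 and 0.12, where the probe used differed by 0.85. For Lig1 the other 3 differed by 1.11, 0.77 and -0.43. The group comparisons were also read on the other probes. In 24 genes with another measured probe, 42 other probes gave 126 differences over the 3 group comparisons, and 46 of these had the opposite sign to the probe used. In the group comparisons none of the 42 passed limma's test, and with array set in the model only the second probe of Mcm7 passed, in NUP98-CDX4 against EGFP (0.40, limma adjusted p = 0.013). Chaf1b, Uhrf1 and E2f1 had no other measured probe.

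**Figure D3:**
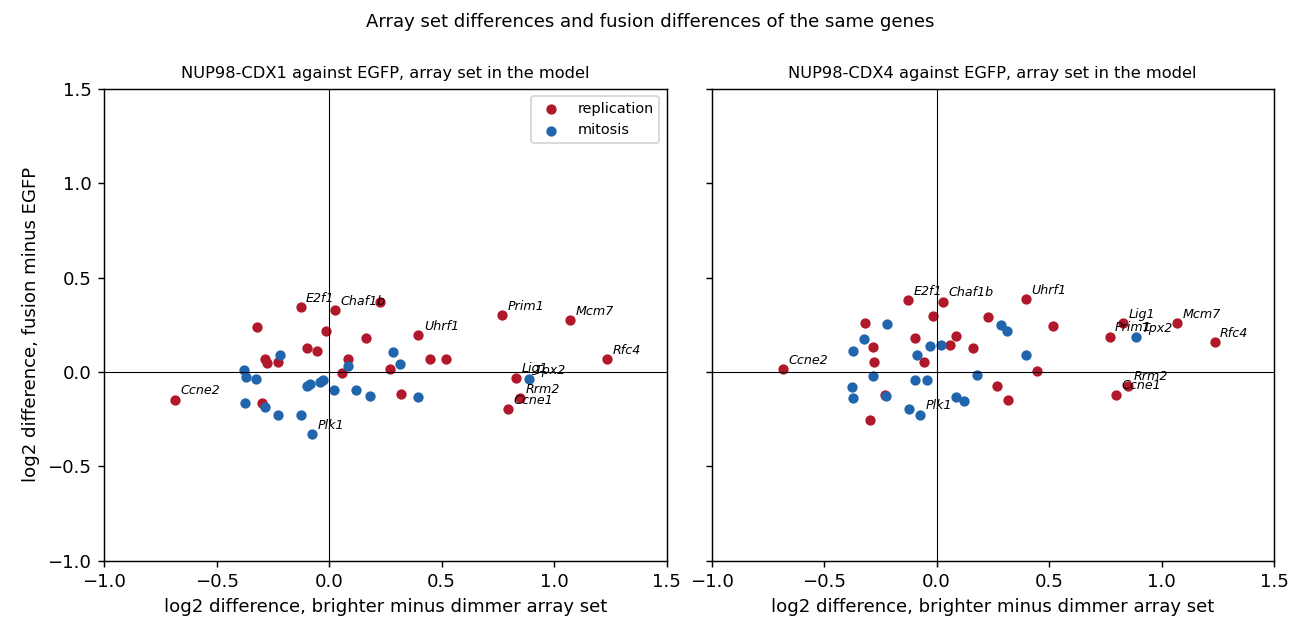
Log2 difference of brighter less dimmer arrays (x axis) and log2 difference of fusion less EGFP with array set in the model (y axis) for each of the 47 members, in 1 panel per fusion. The set differences run from -0.68 to 1.24, and the fusion differences lie between -0.33 and 0.39.

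With array set in the model, 3 replication members rose in NUP98-CDX4 against EGFP and 0 members fell, beside 16.8% of all features called in either direction and 8.85% called higher. At an unadjusted p of 0.05, 9 members passed, beside 29.8%. Chaf1b rose 1.29-fold (0.37, 95% interval 0.17 to 0.57, limma adjusted p = 0.0198). Uhrf1 rose 1.31-fold (0.39, 0.15 to 0.62, limma adjusted p = 0.0342). E2f1 rose 1.30-fold (0.38, 0.14 to 0.62, limma adjusted p = 0.0403). On the brighter arrays alone the differences were 0.37, 0.28 and 0.35, and on the dimmer arrays, with 1 array each, 0.38, 0.60 and 0.45. These calls rested on few arrays: none of the 3 passed when EGFP 1, EGFP 3, NUP98-CDX4 1 or NUP98-CDX4 2 was left out, Uhrf1 alone passed without EGFP 2, and E2f1 did not pass without NUP98-CDX1 2 or NUP98-CDX1 3 either.

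In NUP98-CDX1 against EGFP, 0 of 47 members passed with array set in the model, beside 5.73% of all features, and 6 passed an unadjusted p of 0.05, beside 20.4%. Chaf1b differed by 0.33 (limma adjusted p = 0.074) and E2f1 by 0.34 (limma adjusted p = 0.116). Between the fusions 0 passed, beside 1.47% of all features, and 0 at an unadjusted p of 0.05, beside 13.5%. With array set in the model every member's interval lay within 2-fold in all 3 comparisons, and the members' medians were 0.07 for replication and -0.06 for mitosis in NUP98-CDX1 and 0.15 and -0.02 in NUP98-CDX4.

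**Figure D4:**
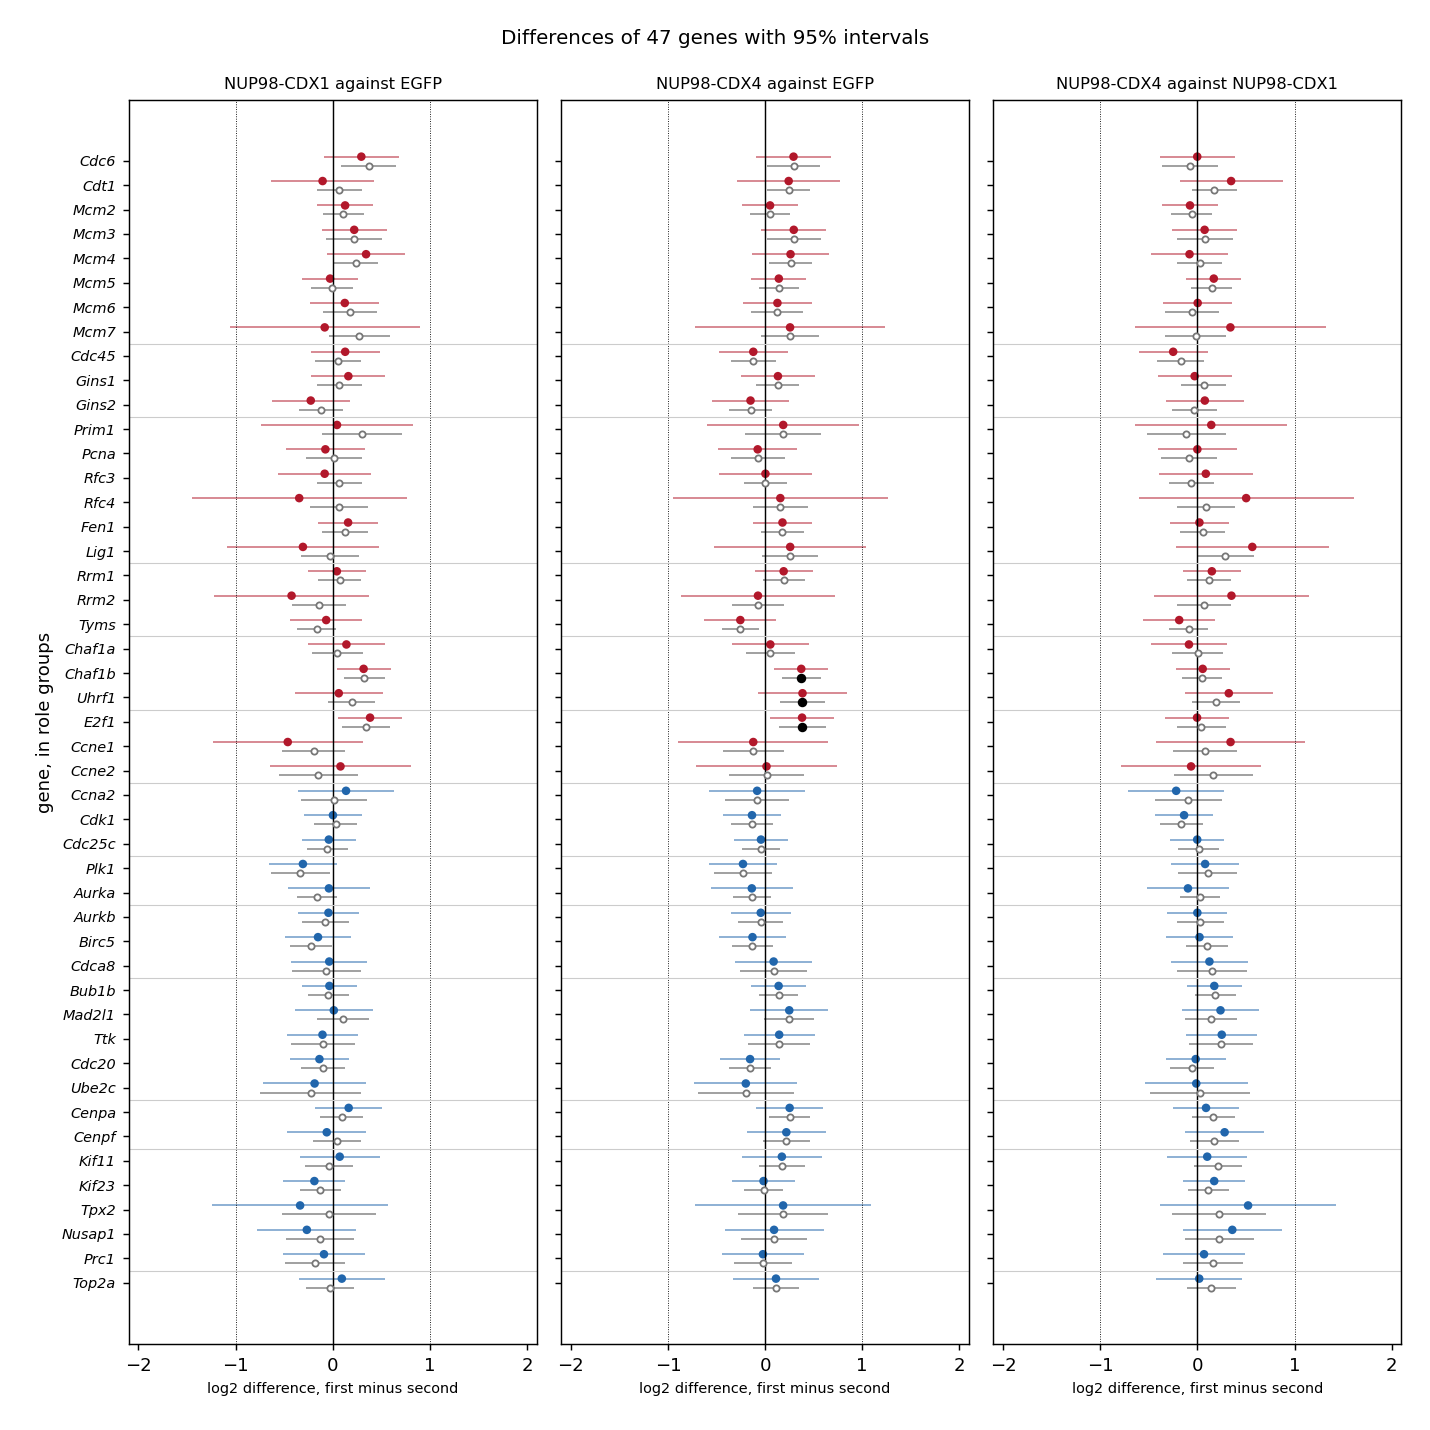
Log2 difference of each member in 3 comparisons, without array set in the model (red, replication; blue, mitosis; lines are 95% intervals) and with it (grey open points; black filled where limma's adjusted p was under 0.05). Only Chaf1b, Uhrf1 and E2f1 are filled, in NUP98-CDX4 against EGFP, and points lie within the dotted lines at 2-fold throughout.

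Of 35 further measured replication genes 0 passed in any of the 3 comparisons, and 2, 4 and 0 passed an unadjusted p of 0.05 in NUP98-CDX1, in NUP98-CDX4 and between the fusions, beside 11.2%, 15.5% and 6.85% of all features. Of 39 further mitosis genes 0 passed, and 1, 1 and 0 passed an unadjusted p of 0.05, beside the same shares. With array set in the model 5 of the 35 replication genes rose in NUP98-CDX4, beside 8.85% of all features called higher in that fit: Orc3 of the origin recognition complex, Pole and Pole2 of DNA polymerase epsilon, Rpa2 of the single-strand binding protein and Clspn, a fork checkpoint mediator. Pole2 differed by 0.52 (1.43-fold, limma adjusted p = 0.0228 with array set and 0.101 without it). Of the mitosis genes, Ncapd2 of condensin rose 1.35-fold in NUP98-CDX4 with array set in the model (limma adjusted p = 0.0251). The kinase gene Melk fell 1.3-fold in NUP98-CDX4 (limma adjusted p = 0.0493) and 1.52-fold in NUP98-CDX1 (limma adjusted p = 0.0208). Without EGFP 3 or without NUP98-CDX4 2, each the dimmer array of its group, none of these 7 genes passed in NUP98-CDX4, and Melk did not pass in NUP98-CDX1 without EGFP 2, EGFP 3 or NUP98-CDX1 3.

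Among regulators that restrain or pair with E2F and the cyclin kinases, some passed without array set in the model. Tfdp2, a partner of E2F proteins on DNA, read 7.70, 7.997 and 7.53 in EGFP, 8.51, 8.61 and 8.60 with NUP98-CDX1 and 8.78, 8.55 and 8.66 with NUP98-CDX4, and every fusion array lay above every EGFP array. It rose 1.78-fold in NUP98-CDX1 (limma adjusted p = 0.0464) and 1.89-fold in NUP98-CDX4 (limma adjusted p = 0.00976), and was the 1 of 16 measured transcription regulators of the cycle that passed, beside 1.04% and 5.36% of all features. Its call in NUP98-CDX1 was lost when any of the 9 arrays was left out (limma adjusted p from 0.0522 to 0.19), while that in NUP98-CDX4 was lost under none of these. Among 14 measured genes of cyclin kinase inhibition or arrest, 3 rose in NUP98-CDX4, beside 5.36% of all features called in either direction. In NUP98-CDX1 0 passed, beside 1.04%, and 3 passed an unadjusted p of 0.05, beside 11.2%. Cdkn1c, the inhibitor p57, read 6.52, 5.67 and 6.33 in EGFP, 6.43, 6.84 and 6.84 with NUP98-CDX1 and 7.80, 8.23 and 7.24 with NUP98-CDX4, and NUP98-CDX4 lay above both other groups. Cdkn1c rose 2.99-fold in NUP98-CDX4 (limma adjusted p = 0.0151), and did not pass without EGFP 2 (0.0595) or NUP98-CDX4 1 (0.0552). Cdkn2c, an inhibitor of Cdk4 and Cdk6, read 7.99, 7.91 and 8.23 in EGFP, 8.83, 8.49 and 9.01 with NUP98-CDX1 and 9.19, 9.32 and 9.83 with NUP98-CDX4 and rose 2.65-fold (limma adjusted p = 0.00545). Mxd4, a MYC antagonist, rose 1.81-fold (limma adjusted p = 0.0152), and did not pass without EGFP 1 (0.0567) or EGFP 3 (0.0507). Of 17 checkpoint and recombination genes 0 passed, and 1, 0 and 0 passed an unadjusted p of 0.05 in the order above, beside 11.2%, 15.5% and 6.85%. With array set in the model Atm and Brca1 rose in NUP98-CDX4, as did E2f6 and Rbl1 of the regulators and Ccng2 and Tob1 of the arrest genes, beside 8.85% of all features called higher. With array set in the model, Tfdp2 passed in both fusions, and Cdkn1c, Cdkn2c, Mxd4 and Ccng2 in NUP98-CDX4, with any 1 of the 9 arrays left out. Atm, Brca1, E2f6, Rbl1 and Tob1 did not pass without EGFP 3 or without NUP98-CDX4 2.

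Summed markers of late neutrophils and macrophages lay lower in both fusion groups than in EGFP, while those of mast cells lay lower with NUP98-CDX4 and overlapped EGFP with NUP98-CDX1. The summed intensity of 9 measured late neutrophil markers ranged from 65875 to 74810 in EGFP, 34281 to 40519 with NUP98-CDX1 and 5512 to 13782 with NUP98-CDX4. S100a8, S100a9 and Lcn2 were the brightest of the 9 on every array and so weigh most in this sum. By limma's test, 5 of 9 fell in NUP98-CDX1 and 9 of 9 in NUP98-CDX4, beside 58 and 388 of all 13160 features. For 9 macrophage markers the sums ranged from 8931 to 9424, from 3651 to 4444 and from 1921 to 3150. Of these, 3 of 9 fell in NUP98-CDX1 and 6 of 9 in NUP98-CDX4, beside the same counts of features. For 8 mast cell markers the sums ranged from 9452 to 16087, 9863 to 16008 and 2587 to 3334. Of these 8, 4 fell in NUP98-CDX1 and 8 in NUP98-CDX4, beside the same counts of features. Hdc and Cpa3 were the brightest of the 8 on every array, and with NUP98-CDX1 both overlapped EGFP, as did Ms4a2. Cma1, Cma2, Mcpt4, Tpsb2 and Fcer1a lay lower on every NUP98-CDX1 array than on any EGFP array. On the log2 scale Cma2 ranged from 9.98 to 10.53 in EGFP and from 5.67 to 6.66 with NUP98-CDX1. Hdc ranged from 11.96 to 12.96 and from 12.60 to 13.56. Hba-a1, Alas2 and Slc4a1 of red cells and Col1a1, Col3a1 and Cdh5 of stroma and vessels were detected on 0 arrays. Of the same lists, Hbb-bt, Tfrc and Pecam1 were detected on 9 arrays, Klf1 on 7, and Epor and Cxcl12 on 4. The summed intensity of Pecam1 and Cxcl12, of the stroma and vessel list, ranged from 668 to 703 in EGFP. It ranged from 794 to 896 with NUP98-CDX1 and from 945 to 1142 with NUP98-CDX4. The part of these markers in the levels of the members was not tested.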

How the data were processed

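Total RNA of 9 samples, 3 per group, was labelled with biotin and hybridized to Illumina mouse arrays, per the labels' protocols. The deposited intensity values are probe signals without normalization, exported with GenomeStudio per the submitters' processing notes, in a version not stated in what was used here. Detection p-values are used as the authors deposited them. Processed intensities that the authors also deposited, of unstated normalization and with column medians of 84.3 to 85.8, served only as an alternative.

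Background correction and quantile normalization used the neqc function (limma 3.58.1, R 4.3.3, and version 1.17.8 of the data.table package), with an offset of 16 and with negative controls that limma inferred from detection p-values. The deposited intensities were thereby put on the log2 scale. The filter kept 19472 of 45281 probes, those detected (p under 0.05) on 3 or more arrays, and the probe with the highest mean stood for its gene. The platform annotation gave 1 symbol for 34885 probes, several for 18 and none for 10378. By Entrez number, 34807 probes were found in RefSeq's gene list, and 0 symbols changed.

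A single limma linear model (lmFit and eBayes, two-sided) took all 9 arrays and 13160 features, with 1 mean for each group, with Benjamini-Hochberg adjustment across every feature and a threshold of 0.05. Array sets were found by clustering arrays on probes detected on no array (Spearman 0.735 to 0.765 and 0.43 to 0.455 within the sets, 0.319 to 0.381 between them), and a model with array set as a further term was an alternative. Replicate numbers were not taken to pair the samples. Of 9 same-numbered pairs of arrays, 3 had a correlation of deviations above 0.1, and the values ran from -0.79 to 0.67. These values cannot decide on pairing, because their sign followed array set. Every pair of arrays from different groups was positive inside a set and negative between the sets. The fit was tested on simulated data.

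All members may be named. Values on every array are given for the member with the smallest p of each role group in each comparison with EGFP, and for a few others, among them Uhrf1, Ccne1, Ccne2 and Cdc6, chosen after their values were seen. From each related list up to 4 genes with the smallest adjusted p were named. Pole, Rpa2, Melk and Ccng2 complete a count and were also chosen after their values were seen. The members and lists were chosen with earlier results of these data known.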

Additional observations from a re-analysis of the deposited data

How the results depend on the processing

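Without array set in the model, 0 members passed when any 1 array was left out, with other scaling, without background correction, with the authors' processed values, with a replicate block and with an intensity trend. Chaf1b alone passed in NUP98-CDX4 with no detection filter (1 member). With array set as a block 3 passed in NUP98-CDX4, and 0 to 3 with 1 array left out (an alternative chosen after seeing the data). Also chosen after seeing the data, the block with scaling to the 75th percentile gave 1 in NUP98-CDX4, beside 2106 of 13160 features, and with the authors' values 1 in NUP98-CDX1 (Chaf1b), beside 1117, and 4 in NUP98-CDX4 (Tyms fell), beside 2540. Array weights gave 11, 2 and 12 members and 5075, 2171 and 4015 features in NUP98-CDX1, NUP98-CDX4 and between the fusions, with weights of 0.282 to 0.287 for the 1 array of each group that lies in another set than the other 2 and of 1.11 to 3.44 for the rest. Over all features the counts, in the same order, were 754, 2206 and 193 with the array set block, 33, 430 and 1 with the replicate block, and 5, 118 and 0 on the dimmer arrays alone, where 0 features stand beside 0 members. On the brighter arrays alone 56 passed in NUP98-CDX1 and 8 between the fusions, with no detection filter 91 and 8, and with detection on all 9 arrays 78 and 6. Leaving out 1 array gave 24 to 148, 320 to 737 and 0 to 33. The mitosis median in NUP98-CDX1 was -0.0934 with 75th percentile scaling, -0.10 with the mean over probes and -0.10 on the dimmer arrays. In NUP98-CDX4 it was -0.0653 with the authors' values and 0.0669 on the dimmer arrays. Between the fusions it was 0.14 with the array set block, 0.13 on the brighter arrays, 0.14 on the dimmer arrays and -0.00085 with array weights. With 1 array left out the replication medians ran from 0.02 to 0.08, 0.09 to 0.21 and 0.02 to 0.13, and the mitosis medians from -0.103 to -0.0406, -0.0244 to 0.0428 and 0.00818 to 0.161. The causes were not tested. A replicate block changed 0 calls of members, and whether the replicate numbers pair the samples is not known. Cdkn1c did not pass with it (limma adjusted p = 0.0592), nor did Tfdp2 in NUP98-CDX1 (0.159). Having 3 arrays a group limits the precision of every value.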

Other observations

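Of 7 listed markers of primitive marrow cells 5 were measured, since Flt3 was detected on 1 array at most and Ly6a had no probe. Among these 5, Meis1, a homeobox gene of stem and progenitor cells, was the 1 whose fusion arrays all lay above those of EGFP. It read 9.78, 9.78 and 9.91 in EGFP, 10.64, 10.50 and 11.25 with NUP98-CDX1 and 11.59, 11.67 and 11.55 with NUP98-CDX4. It rose 3.43-fold in NUP98-CDX4 (limma adjusted p = 0.00123), and differed by 0.98 on the log2 scale in NUP98-CDX1 (limma adjusted p = 0.0571). The arrays of EGFP overlapped those of both fusion groups for Kit, Cd34, Mecom and Gata2, and 0 of these 4 passed. Kit ranged from 11.90 to 12.26 in EGFP, from 12.15 to 12.62 with NUP98-CDX1 and from 11.72 to 12.37 with NUP98-CDX4. Cd34 ranged from 8.67 to 10.10, from 9.25 to 10.27 and from 9.29 to 10.44 in the same order. Mecom ranged from 6.15 to 8.28, from 7.05 to 7.55 and from 7.33 to 8.17. Gata2 ranged from 11.43 to 12.004, from 11.81 to 12.28 and from 11.86 to 12.17. The summed intensity of the 5 ranged from 9284 to 10156 in EGFP, 11280 to 13328 with NUP98-CDX1 and 11550 to 13700 with NUP98-CDX4. The sums of both fusion groups thus lay above those of EGFP, and they were not tested. Kit and Gata2 were the brightest of the 5 on every array and so weigh most in this sum. For 4 measured red cell markers the summed intensities overlapped, from 7905 to 12852, 9330 to 10506 and 7782 to 14344. Tfrc was the brightest of these 4 on every array and so weighs most in their sum.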
